A study of Mus musculus with 12 samples.

Results

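Mitosis and spindle checkpoint genes code for the proteins that carry a cell through division: the kinases and cyclins that start mitosis, the spindle and its motors, the kinetochores, the checkpoint that reads them, and the machinery that folds and parts the chromosomes. The set is a list of 41 mouse genes taken by symbol. The rule uses no measured value, but the list was chosen with earlier results of these data known, so counts over it are descriptions. Of the 41 genes, 40 were among the 16080 genes of the files, and Ttk, the kinase known as MPS1, was not. The 40 genes were followed in alveolar epithelial type 2 cells (AEC2), the surfactant-making cells of the lung, from mice of 3 genotypes of surfactant protein C (SP-C, gene Sftpc).

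RNA of isolated AEC2 was sequenced in 12 libraries, 4 for each genotype. WT libraries came from SP-C WT mice, C185Gneo libraries from SP-C C185Gneo mice, which the series calls hypomorphic controls, and C185G libraries from SP-C C185G mice, which carry the mutant form after induction. All mice were female Bl6 animals at postnatal day 56 (P56), and all 3 groups received tamoxifen by intraperitoneal injection (200 mg per kg, 2 days) and gave cells on day 7, so no group is free of tamoxifen. The sources used here do not give the recombinase or the cells it acts in. The cells were enriched by removing other cells (plastic adherence for mesenchyme, beads for CD45-positive cells) and not by sorting for an AEC2 marker. Groups follow the genotype field of the labels. The titles of the C185Gneo libraries carry the name C185G and those of the C185G libraries another code, and the level of Sftpc was lowest, 772 to 1079 CPM, in the libraries with genotype C185Gneo, against 2471 to 3059 in C185G and 7211 to 7674 in WT. Nothing in the labels says that the 4 libraries of a genotype came from separate animals, so the p-values measure the spread between these libraries.

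Division is driven by cyclin-dependent kinase 1 (CDK1) with its cyclins, which AURKA, PLK1 and the CDC25 phosphatases help to switch on. The spindle checkpoint (BUB1, BUBR1, BUB3, MAD2 and the kinase MPS1) holds the anaphase-promoting complex inactive through CDC20 until every kinetochore is attached to the spindle, and chromosomes then part and the cell is cleaved. In most tissues these genes are transcribed together late in the cell cycle and are kept low in resting cells by MuvB-containing complexes, which bind promoters at the cell cycle homology region, often near CCAAT boxes bound by NF-Y. AEC2 divide rarely in the healthy adult lung and are the progenitors that restore the alveolar epithelium after injury.

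Promoter sequences are shown first because genes of this kind are known for shared promoter elements. RefSeq promoter windows of build GRCm38.p6, from 250 bases before to 50 bases after the start of transcription, were present for 34 of the 41 genes (37 windows). The following strings were searched on both strands: TTTGAA, the core of the homology region, TTCGAA, a variant of that string, and CCAAT, the NF-Y box. TTCGAA reads the same on both strands, and no string contains another. TTTGAA was found for 25 of the 34 members (73.5%) against 20.2% of the 27025 genes with a window, and CCAAT for 25 of 34 (73.5%) against 41.1%. At least 2 CCAAT in 1 window were found for 16 members, against 13.3% of all genes. TTCGAA was found for 4 of 34 members (11.8%) against 1.8% of all genes with a window, and these 4 were Bub1, Bub1b, Cdc25b and Top2a. Among the 11463 measured genes with a window the shares were 14.4% for TTTGAA, 42% for CCAAT and 2.41% for TTCGAA.

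Stretches are printed 5′ to 3′ on the gene's strand for the 3 members that were lower in C185G than in WT (Bub1, Bub1b and Cdc25b), for 3 of those that were higher (Cdk1, Cdc20 and Kif11) and for Top2a, which was higher and holds both strings. Capitals mark TTCGAA in Bub1, Bub1b and Cdc25b, TTTGAA in Cdk1, Cdc20 and Kif11 (TTCAAA where it lies on the opposite strand), and both in Top2a. Position 1 is the first transcribed base of the RefSeq window and -1 the base before it.
Bub1, minus strand, chr2:127831835-127831949: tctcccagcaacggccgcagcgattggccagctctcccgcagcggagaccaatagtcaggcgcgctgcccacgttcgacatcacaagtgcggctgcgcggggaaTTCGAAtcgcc
Bub1b, plus strand, chr2:118598011-118598126: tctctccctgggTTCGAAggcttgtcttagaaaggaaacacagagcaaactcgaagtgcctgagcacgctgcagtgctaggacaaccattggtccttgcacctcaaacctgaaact
Cdc25b, plus strand, chr2:131186858-131186972: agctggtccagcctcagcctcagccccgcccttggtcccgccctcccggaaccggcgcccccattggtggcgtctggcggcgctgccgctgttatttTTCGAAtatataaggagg
Cdk1, minus strand, chr10:69352888-69353002: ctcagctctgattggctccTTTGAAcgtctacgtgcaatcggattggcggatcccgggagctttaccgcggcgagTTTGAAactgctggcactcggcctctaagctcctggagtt
Cdc20, minus strand, chr4:118437319-118437433: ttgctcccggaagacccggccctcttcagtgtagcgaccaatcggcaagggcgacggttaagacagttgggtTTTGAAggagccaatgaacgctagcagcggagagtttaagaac
Kif11, plus strand, chr19:37376292-37376406: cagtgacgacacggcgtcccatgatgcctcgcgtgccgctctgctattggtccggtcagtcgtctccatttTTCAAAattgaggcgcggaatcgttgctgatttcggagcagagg
Top2a, minus strand, chr11:99024194-99024339: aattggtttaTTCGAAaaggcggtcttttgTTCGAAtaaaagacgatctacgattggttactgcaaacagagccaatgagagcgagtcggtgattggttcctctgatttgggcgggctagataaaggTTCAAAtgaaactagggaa

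In Cdk1 the TTTGAA copies lay at -71 to -66 and -15 to -10, in Cdc20 at -18 to -13 and in Kif11 at -19 to -14, each downstream of a CCAAT box. TTCGAA lay at 15 to 20 in Bub1 and at 8 to 13 in Cdc25b, both after the start, and at -188 to -183 in Bub1b, which also held TTTGAA at 41 to 46. The Top2a window held TTCGAA at -140 to -135 and at -120 to -115, TTTGAA at -179 to -174 and -23 to -18, and 6 CCAAT boxes; positions refer to the whole window, of which only part is printed. Among the members with a window, TTTGAA was present for 23 of the 29 that were higher in C185G than in WT and for 1 of the 3 that were lower, and TTCGAA for 1 of the 29 and for all 3. This split by direction was seen with the changes already known, rests on few genes and is given as a description. Over all 276 measured genes with TTCGAA, 26.8% were higher and 25% lower in C185G than in WT, against 28.9% and 28.3% of all 11463 measured genes with a window. For genes with TTTGAA the shares were 31.2% higher and 25.9% lower (1648 genes). A match of letters is not a measured binding site.

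Most members were lowly expressed in WT AEC2. Levels are given as normalized CPM, counts scaled to a common library size, on the scaling the authors gave each library. Library totals recovered from the files ran from 15659512 to 23444287 counts, so 1 count stood for 0.0428 to 0.0616 CPM. The 40 members together made up 252 to 314 CPM of a WT library. Of the 40, 39 had a mean over all libraries of at least 1 CPM and 21 of at least 5 CPM, and the lowest, Cdc25c, rested on 2 to 8 counts per WT library. Per kilobase of exon, the highest WT mean levels were those of Cdc25b (10.04 CPM per kb), Smc4 (8.55), Bub3 (5.80) and Cdc20 (5.11), and the lowest those of Cdc25c (0.0666), Nuf2 (0.110) and Ndc80 (0.124). Bub1b and Bub1 ranked 6 and 7 of the 40 by this measure.

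In C185G AEC2 36 of the 40 members were higher than in WT, 3 were lower (Bub1, Bub1b and Cdc25b) and 1, Nusap1, was not called. Genes were called where limma, fitted to all 16080 genes, gave an adjusted p (Benjamini-Hochberg) below 0.05, and 55% of all genes were called in this contrast, 27.3% higher and 27.8% lower. The median change of the 40 members was 1.62 on the log2 scale, beside -0.000442 over all genes, and 29 members were more than 1 higher, a size that 5.05% of all genes passed. Against C185Gneo 37 members were higher, 2 were lower (Bub1 and Cdc25b) and Bub1b was not called. In that contrast 57.8% of all genes were called, 29.2% higher and 28.7% lower, the members' median was 1.24 beside 0.00378 over all genes, and 26 members against 6.41% of all genes were more than 1 higher. With 1 CPM added before the log2, which shrinks the changes of low genes, the calls were the same and the medians were 1.19 and 1. The fold changes, taken as ratios and not on the log2 scale, moved by over 1.5 times for 9 members against WT and 4 against C185Gneo. Among those against WT the log2 changes became 0.88 for Cdc25c, 1.496 for Aurkb, 1.22 for Nuf2 and 1.96 for Kif4. The 2 contrasts share the C185G libraries and are not independent of each other. With library totals in place of the authors' scaling the share of higher genes among all calls moved from 49.6% to 59.9% (C185G against WT) and from 50.5% to 58.1% (C185G against C185Gneo).

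The libraries of the groups were separate for most members. All C185G libraries lay above all WT libraries for 35 members and below them for 2, where 25.2% and 23.5% of all genes did so. Against C185Gneo the counts were also 35 and 2, with 25.7% and 24.2% over all genes. All 4 C185G libraries lay above all 8 control libraries for 33 members (21.5% of all genes) and below them for Bub1 and Cdc25b (19.5%).

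**Figure D1:**
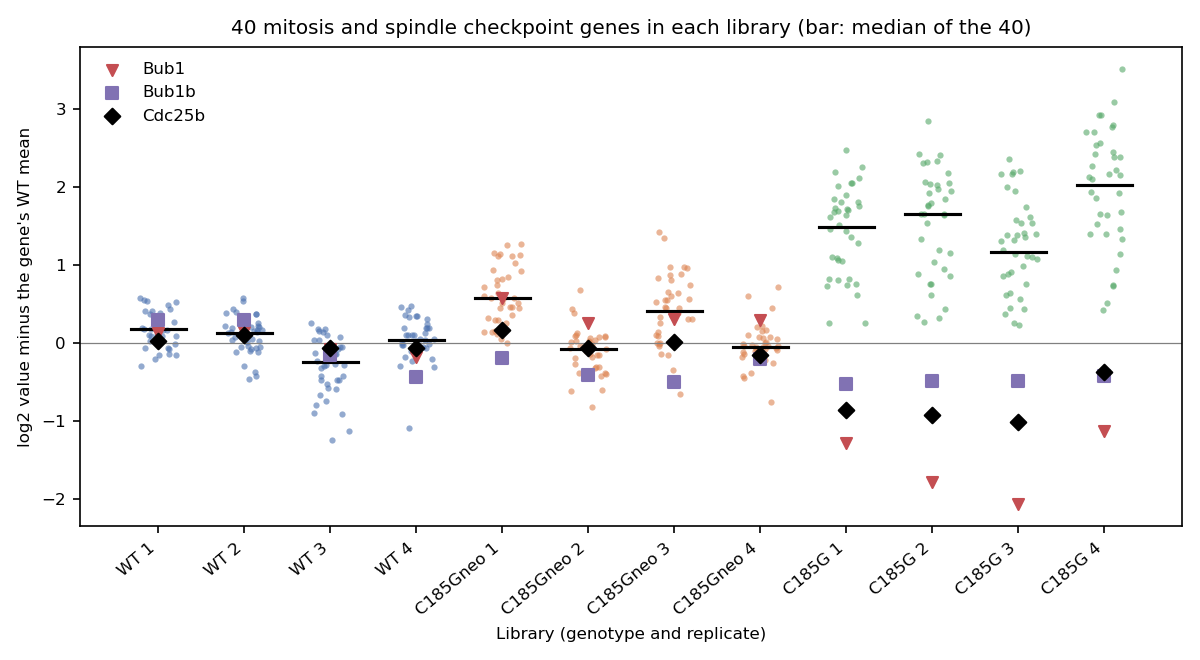
Each point is 1 of the 40 genes in 1 library, as its log2 value minus the gene's WT mean, for WT (blue), C185Gneo (orange) and C185G (green), with the median of the 40 as a bar. The C185G medians lie between 1.16 and 2.02 and the control medians between -0.25 and 0.57, while Bub1 (triangles), Bub1b (squares) and Cdc25b (diamonds) lie below 0 in all 4 C185G libraries.

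Across libraries, the median member stood at 0.17, 0.13, -0.25 and 0.04 above its WT mean on the log2 scale in WT replicates 1 to 4, at 0.57, -0.07, 0.42 and -0.05 in C185Gneo, and at 1.49, 1.65, 1.16 and 2.02 in C185G. The lowest C185G library thus stood above the highest control library, and the range within C185G was the widest. The summed level of the 40 genes was 314, 301, 252 and 284 CPM in WT, 370, 270, 331 and 270 CPM in C185Gneo and 494, 525, 443 and 661 CPM in C185G. Smc4, Bub3 and Cdc25b, the 3 members that contributed most CPM in WT, rose little or fell. The members varied more between libraries of 1 genotype than other genes did: the median SD over libraries was 0.29, 0.34 and 0.34 in WT, C185Gneo and C185G, against 0.13, 0.13 and 0.16 over all genes, on the log2 scale.

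The preparation also changed in other ways between the groups. In bulk RNA, fewer cells of a type and less RNA per cell cannot be told apart, and a rise of dividing-cell transcripts can come from more dividing cells or from more RNA in each. The 10 AEC2 markers were all measured, and their summed level was 33548 to 39362 CPM in WT, 30191 to 34242 CPM in C185Gneo and 14113 to 16896 CPM in C185G. All 10 were lower in C185G than in WT. These sums include Sftpc, the gene that sets the genotypes apart. It was the only 1 of the 10 called for C185Gneo against WT (-3.07, adjusted p 5.93e-10). The other AEC2 markers ran from -0.075 (Sftpd) to 0.25 (Napsa) in that contrast, so the lower C185Gneo sums reflect Sftpc. For C185G against C185Gneo, Sftpc was higher (1.67) and the other 9 markers were lower. Of the other cell types, the 4 measured neutrophil markers of 5 (Ly6g was not in the files) summed to 5.29 to 24.4 CPM in WT, 5.22 to 18.4 CPM in C185Gneo and 17.7 to 97.6 CPM in C185G. S100a8, one of them, stood at 15.6, 11.5, 4.74 and 27.6 CPM in C185G replicates 1 to 4. Its highest and lowest C185G values were in the libraries with the highest and lowest member medians, and replicates 1 and 2 were in reverse order. In C185Gneo S100a8 was highest in replicate 2 (4.11 CPM), which had the lowest member median. It was lowest in replicate 1 (1.03 CPM), which had the highest median, and nearly as low in replicate 4 (1.04 CPM). S100a9 and Csf3r were highest in C185Gneo replicate 2 and lowest in replicate 4. Retnlg was highest in C185Gneo replicate 1 (5.13 CPM) and lowest in replicate 3 (1.90 CPM). In C185G each of these markers was highest in replicate 4 and lowest in replicate 3. Ptprc, the CD45 gene of all leukocytes, had ranges that overlapped: 6.16 to 9.04 CPM in WT, 6.31 to 8.22 CPM in C185Gneo and 6.85 to 9.36 CPM in C185G.

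The mesenchymal markers (10 of 10 measured) summed to 480 to 744 CPM in WT, 191 to 539 CPM in C185Gneo and 641 to 872 CPM in C185G, and the mesothelial markers (4 of 4) to 326 to 463, 65.3 to 559 and 502 to 661 CPM. Against WT only Dcn (1.03) of the mesenchymal markers was called, with 8 of 10 above WT and Acta2 (-0.74) and Tagln (-0.43) below. No mesothelial marker was called against WT. Msln (1.04) and Wt1 (0.89) stood above WT, and Upk3b (-0.10) and Lrrn4 (-0.14) below. Endothelial markers (9 of 10) were lowest in C185G, at 120 to 141 CPM against 161 to 252 in WT and 149 to 236 in C185Gneo. The macrophage markers (7 of 11) ranged over 72.8 to 92.2, 70.8 to 81.9 and 74.4 to 87.0 CPM, with Marco, Siglecf, Ear2 and Adgre1 not in the files. Of these 7, 3 were higher and 1 lower in C185G than in WT: Chil3 rose by 1.69 (adjusted p 0.000815), Cd68 by 0.94 (adjusted p 6e-06) and Mrc1 by 0.54 (adjusted p 0.0487), and Ly6c2 changed by -0.79 (adjusted p 0.00122). The measured lymphocyte markers (3 of 11) reached 28.9 CPM at most, and none of the 6 erythroid markers was in the files. Club cell markers (5 of 5) were lowest in C185G, at 4543 to 5175 CPM against 5305 to 7295 in WT and 5714 to 7136 in C185Gneo. Ciliated markers (6 of 6) summed to 636 to 921, 616 to 796 and 518 to 766 CPM. Against WT 2 of the 5 club cell and 3 of the 6 ciliated markers were lower in C185G and 0 higher. AEC1 markers (8 of 8) summed to 2055 to 2573, 2028 to 2435 and 2106 to 2645 CPM. Of these 8, 3 were higher and 1 lower in C185G than in WT, beside 27.3% and 27.8% of all genes. Pdpn (1.35, adjusted p 0.00722), Clic5 (0.59, adjusted p 0.0342) and Emp2 (0.40, adjusted p 0.00885) rose, and Ager changed by -0.32 (adjusted p 0.00143). The part of these cells in the members' changes was not tested.

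The spindle checkpoint members moved in both directions. Bub1 and Bub1b code for the checkpoint kinase BUB1 and for BUBR1, which binds CDC20 within the checkpoint complex, Bub3 for the protein that brings both to kinetochores, and Mad2l1 for MAD2, the CDC20 inhibitor. Of the 4, 2 were higher and 2 lower than in WT. Bub1 (chr2:127801122-127831865, minus strand, GRCm38) stood at 13.5, 13.7, 11.7 and 10.9 CPM in WT, 18.5, 14.8, 15.3 and 15.2 CPM in C185Gneo, and 5.10, 3.59, 2.94 and 5.67 CPM in C185G. All C185G libraries were the lowest of the 12, with 54 to 99 counts against 177 to 433 in the controls. The change was -1.56 (SE 0.18, adjusted p 6.65e-06) against WT and -1.92 (SE 0.18, adjusted p 8.6e-07) against C185Gneo. Bub1 made up 3.84% to 5.62% of the summed member level in a control library and 0.664% to 1.03% in a C185G library.

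Bub1b (chr2:118598211-118641591, plus strand) stood at 16.4, 16.4, 11.98 and 9.86 CPM in WT, 11.7, 10.002, 9.40 and 11.6 CPM in C185Gneo, and 9.27, 9.55, 9.54 and 9.92 CPM in C185G. The C185G values were close to each other and overlapped the WT range only at WT replicate 4, but lay within or just under the C185Gneo range. It fell by 0.48 (SE 0.15, adjusted p 0.0136) against WT on the log2 scale and was -0.15 (95% interval -0.47 to 0.17, adjusted p 0.394) against C185Gneo. Without WT replicate 2 the adjusted p against WT was 0.0503, so this call rested on that library. Bub3 stood at 38.8, 39.5, 42.8 and 41.5 CPM in WT, 40.8, 36.4, 40.1 and 40.8 CPM in C185Gneo, and 48.5, 55.2, 54.8 and 58.03 CPM in C185G. Each C185G library was above each control library, and the rise was 0.41 (SE 0.066, adjusted p 0.000136) against WT and 0.45 (SE 0.066, adjusted p 5.41e-05) against C185Gneo, among the smallest of the members that rose. Mad2l1 stood at 5.66, 5.997, 5.85 and 5.30 CPM in WT, 7.83, 5.67, 7.44 and 5.40 CPM in C185Gneo, and 9.48, 11.04, 8.88 and 15.1 CPM in C185G, again with no overlap, and rose by 0.93 (SE 0.17, adjusted p 0.00033) and 0.74 (SE 0.17, adjusted p 0.00176).

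**Figure D2:**
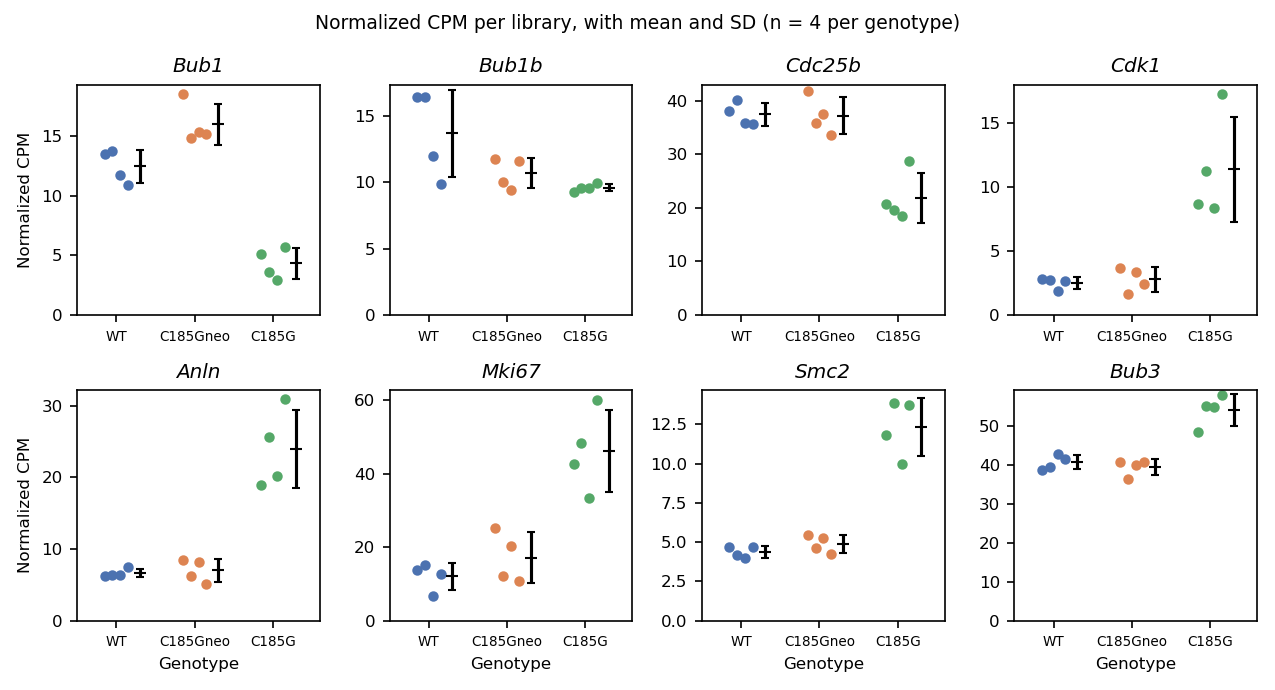
Normalized CPM of 8 members in each library, with the mean and SD of 4 libraries beside the points, by genotype, on linear axes that start at 0. Bub1 and Cdc25b are lower in all C185G libraries than in all controls, Bub1b overlaps between the groups, and Cdk1, Anln, Mki67, Smc2 and Bub3 are higher in all C185G libraries.

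Among the regulators of mitotic entry and exit, 8 of 9 members were higher in C185G than in WT and Cdc25b was lower, and the same counts held against C185Gneo. Cdk1 codes for the kinase that drives mitosis, and stood at 2.80, 2.72, 1.84 and 2.65 CPM in WT, 3.68, 1.61, 3.39 and 2.44 CPM in C185Gneo, and 8.70, 11.3, 8.34 and 17.2 CPM in C185G. Its lowest C185G value was more than that of any control library, and it rose by 2.13 (SE 0.28, adjusted p 2.62e-05) against WT and 2.03 (SE 0.28, adjusted p 3.56e-05) against C185Gneo. Ccnb1, for cyclin B1, the partner of CDK1, stood at 1.89, 1.41, 0.724 and 1.91 CPM in WT, 2.18, 1.22, 1.90 and 0.813 CPM in C185Gneo, and 5.82, 7.54, 6.32 and 10.7 CPM in C185G. Controls ranged from 13 to 51 counts and C185G libraries from 113 to 174, and the rise was 2.39 (SE 0.35, adjusted p 7.91e-05) and 2.35 (SE 0.35, adjusted p 8.34e-05). Plk1, for a kinase with roles from entry to cytokinesis, stood at 1.49, 1.81, 1.11 and 1.97 CPM in WT, 3.42, 2.11, 2.44 and 2.38 CPM in C185Gneo, and 5.10, 5.35, 4.14 and 7.64 CPM in C185G. The 3 genotypes did not overlap, with C185Gneo between WT and C185G, and Plk1 rose by 1.78 (SE 0.23, adjusted p 1.79e-05) against WT and 1.08 (SE 0.23, adjusted p 0.00104) against C185Gneo.

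Cdc25b, for a phosphatase that removes the inhibitory phosphates from CDK1, went the other way and stood at 37.98, 40.1, 35.9 and 35.7 CPM in WT, 41.8, 35.8, 37.6 and 33.6 CPM in C185Gneo, and 20.7, 19.6, 18.5 and 28.8 CPM in C185G. The C185G libraries were the 4 lowest, replicate 4 being nearest to the controls, and the change was -0.79 (SE 0.12, adjusted p 7.11e-05) against WT and -0.78 (SE 0.12, adjusted p 7.38e-05) against C185Gneo. Its relative Cdc25c was the least abundant member, at 0.328 ± 0.145 CPM (SD, n = 4) in WT, 0.322 ± 0.190 CPM in C185Gneo and 1.46 ± 0.469 CPM in C185G, and rose by 2.13 (SE 0.43, adjusted p 0.000788) against WT on counts of 19 to 34 per C185G library. Cdc20, for the activator of the anaphase-promoting complex that the checkpoint restrains, went from 9.54 ± 2.37 CPM in WT to 25.1 ± 7.43 CPM in C185G and rose by 1.38 (SE 0.28, adjusted p 0.00113). Ccna2 (cyclin A2) went from 2.77 ± 0.702 CPM in WT to 6.82 ± 1.52 CPM in C185G, Ccnb2 (cyclin B2) from 5.93 ± 0.993 CPM in WT to 10.5 ± 1.77 CPM in C185G and Aurka (the centrosomal Aurora kinase) from 2.59 ± 0.475 CPM in WT to 4.69 ± 1.69 CPM in C185G. Their changes against WT were 1.29, 0.82 and 0.80 with adjusted p of 0.000167, 0.000668 and 0.00831, and no C185G library of the 3 genes overlapped a control.

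All 4 members of the chromosomal passenger complex, which corrects faulty attachments at the centromere and later directs cleavage, were higher in C185G than in either control. Aurkb, its kinase, stood at 0.629, 0.509, 0.836 and 0.863 CPM in WT, 1.54, 0.556, 1.31 and 1.16 CPM in C185Gneo, and 2.88, 3.59, 3.22 and 6.10 CPM in C185G, and rose by 2.39 (SE 0.32, adjusted p 2.75e-05) against WT and 1.79 (SE 0.32, adjusted p 0.000302) against C185Gneo. The WT values rested on 9 to 15 counts. Incenp, the scaffold, stood at 12.1, 9.84, 9.75 and 11.03 CPM in WT, 11.8, 10.7, 11.4 and 9.87 CPM in C185Gneo, and 18.03, 19.6, 22.5 and 28.1 CPM in C185G, with a rise of 1.03 (SE 0.13, adjusted p 1.46e-05) and 0.99 (SE 0.13, adjusted p 1.83e-05). The C185G libraries were all above the 8 controls for both genes. Birc5, for survivin, stood at 2.52, 2.43, 1.89 and 2.71 CPM in WT, 2.91, 2.39, 2.14 and 2.38 CPM in C185Gneo, and 4.996, 4.89, 4.31 and 6.84 CPM in C185G, and rose by 1.12 (SE 0.17, adjusted p 9.35e-05) and 1.08 (SE 0.17, adjusted p 0.000119). Cdca8, for borealin, stood at 1.49, 1.41, 0.892 and 1.48 CPM in WT, 2.31, 0.722, 2.56 and 1.34 CPM in C185Gneo, and 5.67, 5.40, 5.23 and 9.92 CPM in C185G, and rose by 2.26 (SE 0.36, adjusted p 0.000133) and 2.01 (SE 0.36, adjusted p 0.00033). C185G replicate 4 was the highest library for all 4 genes, and even the lowest C185G library was above every control.

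The 5 centromere and kinetochore members all rose as well. Cenpa, for the histone H3 variant that marks centromeres, stood at 2.97, 2.89, 2.06 and 2.16 CPM in WT, 3.55, 2.67, 2.74 and 2.61 CPM in C185Gneo, and 5.36, 4.52, 5.40 and 8.01 CPM in C185G, and rose by 1.18 (SE 0.19, adjusted p 0.000149) against WT and 0.98 (SE 0.19, adjusted p 0.000654) against C185Gneo. Nuf2 and Ndc80 code for the microtubule-binding arm of the kinetochore and were among the least abundant members. Nuf2 stood at 0.686, 0.792, 0.446 and 0.863 CPM in WT, 0.941, 0.722, 1.01 and 0.755 CPM in C185Gneo, and 2.88, 2.89, 2.07 and 4.13 CPM in C185G, and Ndc80 at 1.09, 1.02, 0.502 and 0.616 CPM in WT, 1.07, 0.667, 0.595 and 0.755 CPM in C185Gneo, and 2.52, 2.28, 2.02 and 4.31 CPM in C185G. Neither overlapped between C185G and the controls, and they rose by 2.05 (SE 0.26, adjusted p 1.5e-05) and 1.76 (SE 0.31, adjusted p 0.000258) against WT. Against C185Gneo the changes were 1.74 (SE 0.26, adjusted p 5.75e-05) and 1.78 (SE 0.31, adjusted p 0.000215). Cenpf, for a large protein of the outer kinetochore, stood at 2.92, 3.96, 1.95 and 2.40 CPM in WT, 6.07, 2.0005, 4.76 and 2.90 CPM in C185Gneo, and 9.22, 9.82, 6.76 and 11.7 CPM in C185G. C185Gneo replicate 1 was nearest to the C185G libraries, and Cenpf rose by 1.75 (SE 0.32, adjusted p 0.000501) and 1.35 (SE 0.32, adjusted p 0.00305). Cenpe, for the kinetochore motor that moves chromosomes to the spindle equator, went from 1.69 ± 0.594 CPM in WT to 7.402 ± 2.72 CPM in C185G and rose by 2.11 (SE 0.42, adjusted p 0.000931).

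Of the 10 spindle motors and microtubule proteins, 9 were higher in C185G than in WT and all 10 higher than in C185Gneo. Kif11, for the motor that pushes spindle poles apart, stood at 3.49, 3.17, 2.79 and 4.38 CPM in WT, 5.09, 3.61, 4.997 and 3.95 CPM in C185Gneo, and 11.3, 10.8, 7.52 and 12.4 CPM in C185G, and rose by 1.59 (SE 0.18, adjusted p 7.48e-06) against WT and 1.24 (SE 0.18, adjusted p 6.42e-05) against C185Gneo. Kif2c, for a microtubule-depolymerizing kinesin at centromeres, stood at 1.43, 0.792, 1.23 and 1.05 CPM in WT, 2.14, 1.44, 1.37 and 1.16 CPM in C185Gneo, and 3.66, 5.63, 2.78 and 5.85 CPM in C185G, and rose by 1.93 (SE 0.27, adjusted p 4.3e-05) and 1.51 (SE 0.27, adjusted p 0.000331). The C185G values of both genes were above all controls. Kif4, for the chromosome-bound kinesin of the central spindle, stood at 1.26, 1.30, 0.390 and 1.29 CPM in WT, 2.35, 1.56, 2.62 and 0.929 CPM in C185Gneo, and 5.46, 7.03, 5.01 and 11.2 CPM in C185G. WT replicate 3 was far below the other WT libraries (7 counts), and the rise against WT, 2.79 (SE 0.42, adjusted p 0.000121), was the largest of any member; against C185Gneo it was 1.96 (SE 0.42, adjusted p 0.00165). Kif20a, for a kinesin needed in cytokinesis, stood at 3.20, 3.11, 2.73 and 3.02 CPM in WT, 4.32, 3.06, 4.34 and 2.79 CPM in C185Gneo, and 6.44, 6.71, 5.12 and 7.64 CPM in C185G, and rose by 1.08 (SE 0.17, adjusted p 0.000115) and 0.85 (SE 0.17, adjusted p 0.000806), with no overlap.

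Tpx2, for the protein that activates AURKA on the spindle, went from 2.42 ± 0.949 CPM in WT to 11.8 ± 2.42 CPM in C185G, Hmmr, for a spindle-pole protein, from 1.27 ± 0.561 CPM in WT to 5.45 ± 1.09 CPM in C185G, and Kif20b, for another cytokinetic kinesin, from 1.21 ± 0.114 CPM in WT to 4.14 ± 1.79 CPM in C185G. They rose by 2.37, 2.18 and 1.65 against WT (adjusted p 0.000516, 0.000199 and 0.000426), and Kif20b overlapped C185Gneo. Kif23, the motor of centralspindlin, and Prc1, the bundler of the central spindle, changed less, from 8.93 ± 1.52 CPM in WT to 13.7 ± 2.23 CPM in C185G and from 13.8 ± 2.62 CPM in WT to 22.3 ± 3.29 CPM in C185G, with rises of 0.62 (SE 0.16, adjusted p 0.00447) and 0.70 (SE 0.16, adjusted p 0.0027). Kif23 overlapped WT at C185G replicate 3, and Prc1 overlapped C185Gneo. Nusap1, for a protein that bundles microtubules near chromatin, stood at 6.28 ± 2.03 CPM (SD, n = 4) in WT, 5.81 ± 1.16 CPM in C185Gneo and 8.67 ± 1.14 CPM in C185G. It was 0.51 above WT (interval 0.04 to 0.99, adjusted p 0.0607), which missed the threshold, and was called against C185Gneo (0.59, adjusted p 0.0335). The calls of Prc1 and Nusap1 against C185Gneo (Prc1 0.46, adjusted p 0.0293) were each lost without any 1 of 4 libraries: C185Gneo replicate 4, C185G replicate 1 and C185G replicate 4 for both, C185Gneo replicate 2 for Prc1 and C185Gneo replicate 3 for Nusap1, with adjusted p from 0.0642 to 0.0988.

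**Figure D3:**
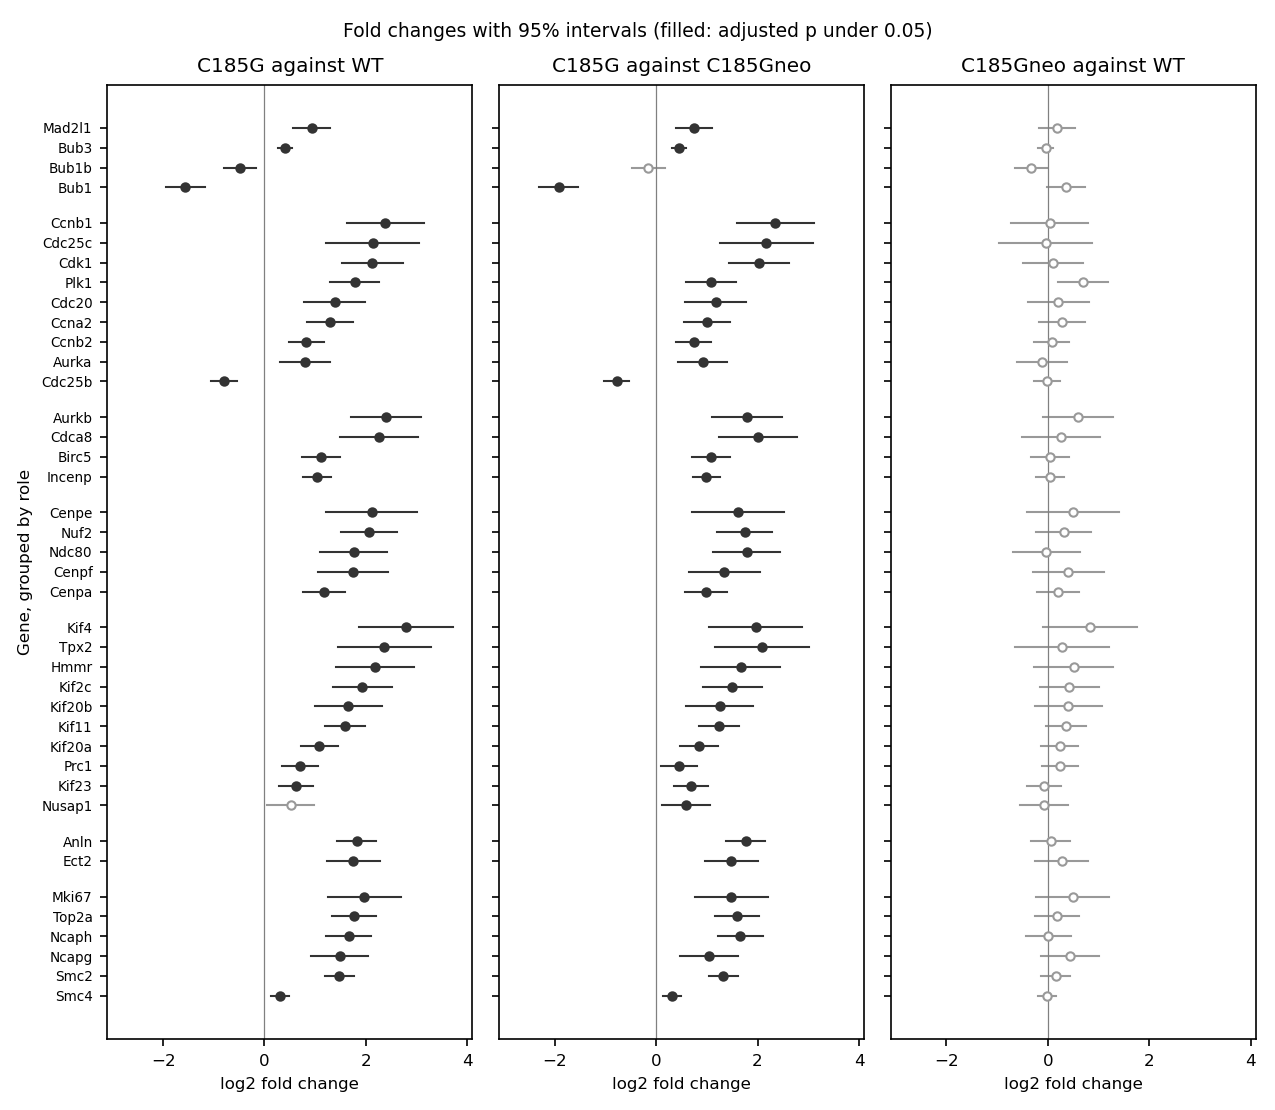
Log2 fold change of each of the 40 members with its 95% interval in the 3 contrasts, grouped by role, filled where the adjusted p is under 0.05. Bub1 and Cdc25b lie left of 0 in both C185G contrasts, Bub1b only against WT as a call, and no member is filled in C185Gneo against WT.

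Both cytokinesis members rose. Anln, for anillin, which links the contractile ring to the membrane, stood at 6.24, 6.39, 6.35 and 7.52 CPM in WT, 8.51, 6.28, 8.21 and 5.05 CPM in C185Gneo, and 18.9, 25.6, 20.2 and 30.9 CPM in C185G. The C185G libraries were all far above the 8 controls, and the rise was 1.82 (SE 0.18, adjusted p 1.87e-06) against WT and 1.77 (SE 0.18, adjusted p 2.19e-06) against C185Gneo. Ect2, for the exchange factor that activates RhoA at the cleavage site, stood at 5.15, 5.26, 3.29 and 4.93 CPM in WT, 7.70, 4.28, 7.20 and 3.95 CPM in C185Gneo, and 15.1, 15.6, 11.9 and 20.6 CPM in C185G, and rose by 1.76 (SE 0.24, adjusted p 4.36e-05) and 1.48 (SE 0.24, adjusted p 0.000163), also without overlap.

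All 6 chromosome structure members were higher in C185G than in either control. Smc2, for a core ATPase of condensin, stood at 4.69, 4.19, 3.96 and 4.68 CPM in WT, 5.47, 4.61, 5.23 and 4.24 CPM in C185Gneo, and 11.8, 13.8, 9.97 and 13.7 CPM in C185G. Its libraries within a genotype were close together, and with 1.48 (SE 0.13, adjusted p 6.57e-07) against WT and 1.32 (SE 0.13, adjusted p 1.58e-06) against C185Gneo it had the smallest adjusted p of all members against WT. Top2a, for the topoisomerase that untangles chromosomes, stood at 10.1, 9.50, 8.92 and 9.25 CPM in WT, 14.3, 7.22, 14.3 and 8.94 CPM in C185Gneo, and 33.99, 35.7, 25.1 and 35.7 CPM in C185G, and rose by 1.77 (SE 0.20, adjusted p 8.9e-06) and 1.59 (SE 0.20, adjusted p 2.11e-05). Ncaph stood at 1.94, 2.09, 2.34 and 2.34 CPM in WT, 2.27, 1.61, 2.97 and 2.09 CPM in C185Gneo, and 5.61, 7.59, 5.72 and 9.61 CPM in C185G, and Ncapg at 0.915, 1.07, 1.28 and 1.29 CPM in WT, 2.01, 1.17, 1.90 and 1.28 CPM in C185Gneo, and 2.37, 3.59, 2.45 and 5.11 CPM in C185G; they code for regulatory subunits of condensin I. No control library reached a C185G value for any of these 4 genes. Ncaph rose by 1.67 (SE 0.21, adjusted p 1.41e-05) and 1.66 (SE 0.21, adjusted p 1.32e-05), and Ncapg by 1.48 (SE 0.26, adjusted p 0.000313) and 1.04 (SE 0.26, adjusted p 0.00399). Mki67, for Ki-67, the proliferation antigen that coats mitotic chromosomes, went from 12.02 ± 3.73 CPM in WT to 46.1 ± 11.2 CPM in C185G and rose by 1.97 (SE 0.33, adjusted p 0.000372) against WT and 1.48 (SE 0.33, adjusted p 0.00241) against C185Gneo. Smc4, the partner of SMC2 in condensin, was already at 44.6 ± 4.93 CPM (SD, n = 4) in WT, 43.98 ± 3.48 CPM in C185Gneo and 54.7 ± 3.15 CPM in C185G, and rose by only 0.30 (SE 0.082, adjusted p 0.00682), the smallest change among the members called.

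C185Gneo AEC2 did not differ detectably from WT in any member. None of the 40 was called by limma, where 0.541% of all genes were, and 2 had an unadjusted p under 0.05 (Plk1 and Bub1b) where 9.54% of all genes did, or 3 with voom weights on the recovered counts. Over all alternatives 1 to 5 members did, the 5 without C185Gneo replicate 2. The smallest adjusted p was 0.288, that of Plk1 (0.69, interval 0.21 to 1.18). The members' median was 0.20 on the log2 scale, with changes from -0.33 (Bub1b) to 0.83 (Kif4) and 31 of 40 positive. The median was 0.083 without C185Gneo replicate 1, 0.132 without C185Gneo replicate 3 and 0.107 without WT replicate 3. It was 0.296 without C185Gneo replicate 2 and 0.289 without C185Gneo replicate 4. The medians of C185Gneo replicates 1 and 3 were above those of all WT libraries, and those of replicates 2 and 4 were within the WT range. Plk1 and Bub1 were the only members whose C185Gneo libraries all lay above all WT libraries (3.57% of all genes did), and Bub1 was 0.36 higher (interval -0.03 to 0.74, adjusted p 0.565). The interval of Cdc25c, the least abundant member, ran from -0.96 to 0.88, so changes within those bounds remain possible for it. Upper bounds were highest for Kif4 (1.75) and Cenpe (1.40), so the lack of calls does not show that these genes were unchanged.

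Other genes of division were read from 10 lists of 184 measured genes, counted in the same fit. Over all genes 27.3% were higher and 27.8% lower in C185G than in WT. Among other checkpoint and kinetochore genes, 26 of 36 were higher and 2 lower in C185G than in WT, with a median of 0.71. Zwint, a kinetochore scaffold gene, was the most abundant of those named, at 91.6 ± 5.998 CPM (SD, n = 4) in WT, 98.4 ± 7.79 CPM in C185Gneo and 251 ± 28.5 CPM in C185G, and rose by 1.45 (SE 0.082, adjusted p 1.06e-08). Spdl1 (2.05), Spc24 (1.40), Zwilch (1.45) and Cenpt (0.90) also rose, while Zw10, a partner of Zwilch in the same complex, changed by -0.56 (adjusted p 4.47e-05). Among other spindle and centrosome genes 15 of 26 were higher and 2 lower, with a median of 0.63, and rises of Kif2a (0.96), Tacc3 (1.55), Haus6 (0.82), Ckap2l (1.83) and Plk4 (0.84), the centriole kinase gene. Among other mitotic regulators 13 of 22 were higher and 1 lower, with a median of 0.44; Pbk (3.19), Cdca3 (2.06), Cks1b (1.26) and Cdca2 (1.24) rose, and the 1 lower was Pttg1, the gene of securin, at -0.48 (adjusted p 7.33e-05). Securin is the inhibitor of separase that the anaphase-promoting complex destroys.

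Genes of the anaphase-promoting complex were called in both directions at about the shares of all genes (27.3% higher and 27.8% lower). Of 16 genes of the complex and its ubiquitin-conjugating enzymes, 4 were higher (25%) and 5 lower than in WT, with a median of 0.06. Ube2c, one such enzyme, rose by 2.08 (SE 0.23, adjusted p 5e-06) from 2.16 ± 0.591 CPM in WT to 9.14 ± 2.28 CPM in C185G, Anapc15 (0.80) and Anapc16 (0.32) rose, and Anapc11, the RING subunit, fell by 0.51 (adjusted p 8.46e-05). The other condensin and the cohesin genes were also near these shares, 5 of 15 higher (33.3%) and 5 lower, with a median of -0.11. Condensin genes Ncapg2 (1.15) and Ncaph2 (0.55) rose, and the cohesin genes Stag2 and Pds5b changed by -0.67 and -0.95 (adjusted p 4.72e-06 and 7.95e-05). Of the other cytokinesis genes 5 of 9 were higher and 1 lower: Cep55 (2.07) and Racgap1 (1.89), the partner of Kif23, rose most, and the abscission genes Chmp4b (0.33) and Pdcd6ip (0.28) rose slightly.

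Of the MuvB, DREAM and E2F regulators, 12 of 21 were higher and 2 lower than in WT, with a median of 0.32. Foxm1, the activator of late cell cycle genes, was at 5.21 ± 0.693 CPM (SD, n = 4) in WT, 5.50 ± 0.873 CPM in C185Gneo and 10.8 ± 4.38 CPM in C185G, and rose by 0.98 (SE 0.21, adjusted p 0.00157). Lin54, the MuvB subunit that binds the homology region, rose by 1.28 (SE 0.12, adjusted p 1.33e-06), E2f6 by 1.03 and E2f3 by 0.94, while Lin52, another MuvB subunit, and E2f2 changed by -0.65 and -0.94 (adjusted p 1.79e-05 and 7.81e-06). Of the G1 cyclins and their kinases 3 of 11 were higher, at the share over all genes (27.3%), and 2 lower. Cdk7 (0.41) and Mnat1 (0.25) rose, and Ccnd2 (-0.43) and Ccnh (-0.22) fell. Against C185Gneo Ccne1 rose by 0.94 and Ccnd3 changed by -0.39. Among the CDK inhibitors 3 of 6 were higher and 1 lower. Cdkn1a, for p21, stood at 260 ± 27.1 CPM (SD, n = 4) in WT, 231 ± 29.6 CPM in C185Gneo and 399 ± 32.5 CPM in C185G, and rose by 0.62 (SE 0.094, adjusted p 9.34e-05), Cdkn2b rose by 1.003 and Cdkn2c by 0.64, and Cdkn1b, for p27, changed by -0.69 (SE 0.069, adjusted p 1.95e-06).

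Of the S phase genes, 16 of 22 were higher and 1 lower than in WT, with a median of 0.69. Rrm2 (1.85), Mcm5 (1.49), Uhrf1 (1.37), Cdc45 (1.14), Prim1 (1.02), Rrm1 (0.87) and Mcm7 (0.77), all with roles in the copying of DNA, rose, and Pcna was -0.08 (adjusted p 0.177). Against C185Gneo, where 29.2% of all genes were higher and 28.7% lower, 26 of 36 other checkpoint and kinetochore genes were higher and 3 lower, 16 and 2 of 26 spindle genes, 13 and 1 of 22 regulators and 15 and 1 of 22 S phase genes. In the same contrast 7 of 16 anaphase-promoting complex genes were higher and 4 lower, 5 and 3 of 15 condensin and cohesin genes, and 6 and 1 of 9 cytokinesis genes. The counts were 11 and 3 of 21 for MuvB and E2F, 3 and 3 of 11 for G1 and 2 and 1 of 6 for the inhibitors. In C185Gneo against WT, where only 0.541% of all genes were called, none of the 184 genes was called.

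**Figure D4:**
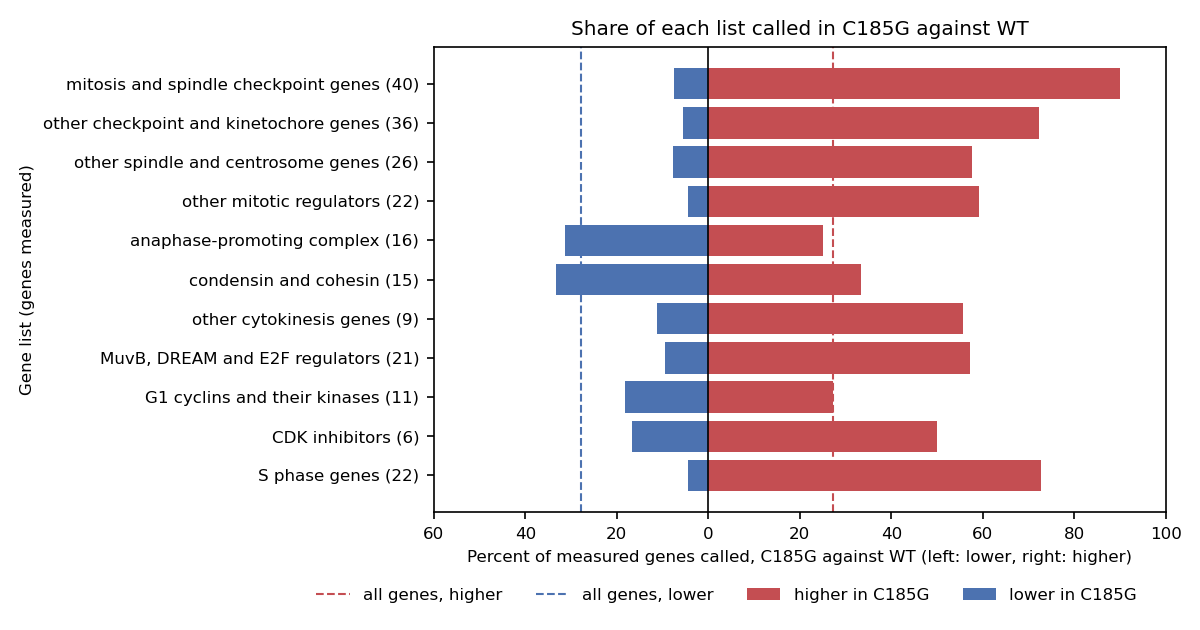
Bars show the percent of the measured genes of each list that were higher (right) or lower (left) in C185G than in WT, with the number of genes in brackets and the shares over all 16080 genes as dashed lines. The mitosis and spindle checkpoint genes reach 90% higher, and the anaphase-promoting complex (25%) and G1 genes (27.3%) lie at the dashed line.

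The 3 members that fell share a chromosome: Bub1, Bub1b and Cdc25b lie on chromosome 2, as do 4 other members, of which Aurka, Tpx2 and Ncaph were higher and Nusap1 was not called. Reads were assigned to genes by a method that the sources used here do not give, and 12 members share exon bases with a neighbouring gene on the genome. The longest such overlaps were 1271 bases of Kif20a with Cdc23, 944 of Ncapg with Lcorl, 911 of Prc1 with Rccd1 and 832 of Kif4 with Pdzd11, all on opposite strands. Cdc25b shares 92 bases with Spef1, and neither Bub1 nor Bub1b shares any. Ccnb1, Ccnb2 and Kif4 have a pseudogene that bears their name, so their values could hold reads of the copy.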

How the data were processed

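RNA of AEC2 was sequenced in 12 libraries, with 1 file of 16080 Ensembl genes per library. The deposited unit is log2. Judged by the values, the authors took the log2 of each whole count plus 0.5 after applying 1 scaling factor to each library. Per the submitters' processing notes STAR, limma and the mm10 genome were used; the sources used here give neither versions nor the read counting tool, gene annotation or strandedness. The spacing of the values gave back the counts (100% whole within 1e-06), and totals were 15659512 to 23444287 per library, which sets the precision of low genes. Normalized CPM are these counts on the authors' factors, brought to the CPM scale over the 12 libraries. Totals cover only the genes of the files, and the factors left scaled totals that differ by at most 1.084 times. Symbols, positions and exon lengths came from GENCODE release M21 (GRCm38), which named 16017 genes and left 63 unnamed. Promoter windows came from RefSeq (GRCm38.p6).

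The test was limma 3.58.1 (trend and robust eBayes, R 4.3.3) on the 12 libraries together, with a coefficient for each genotype, no covariates and no filter. Genes with an adjusted p (Benjamini-Hochberg, over all genes) below 0.05 were called. Intervals are at 95% and unadjusted. Data handling used jsonlite 2.0.0 and data.table, version 1.17.8, with Python 3.11.15, pandas 2.3.3 and matplotlib 3.10.9 for promoters and figures. The members and all gene and marker lists were chosen with earlier results of these data known, so counts over them are descriptions. Values per library are given for Bub1, Bub1b, any member called against most of its role group and up to 4 members per role group with the smallest p, and from each other list up to 4 genes with the smallest p per C185G contrast are named, plus Cdkn1a and Foxm1. A few other genes are named where a count or a contrast turns on them. Alternatives were other variance models, scalings, filters, weights, a replicate block and each library left out.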

Additional observations from a re-analysis of the deposited data

Results flagged for a closer look

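In groups of 4 libraries, a library was singled out when its gap to the nearest other library as a share of the group's range exceeded Dixon's critical value at the 95% level. This occurred in 15 of 123 groups, made of the 40 genes and the members' summed level in 3 genotypes, where chance gives about 1 in 20. The groups are not independent, because all genes share the same libraries and the sum holds the same genes, so no excess can be read from this. WT replicate 3 was the lowest of its group for Cdk1 (1.84 CPM, others 2.65 to 2.80), Cdca8 (0.892 CPM, others 1.41 to 1.49), Kif4 (0.390 CPM, others 1.26 to 1.30), Tpx2 (1.003 CPM, others 2.84 to 2.97) and Ect2 (3.29 CPM, others 4.93 to 5.26). It also had the lowest member median of the 12 libraries. WT replicate 4 was the highest for Anln (7.52 CPM, others 6.24 to 6.39).

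C185Gneo replicate 1, the most deeply sequenced library, was the highest of its group for Bub1 (18.5 CPM, others 14.8 to 15.3), Ccnb2 (8.04 CPM, others 5.63 to 5.72) and Cenpa (3.55 CPM, others 2.61 to 2.74), and C185Gneo replicate 2 the lowest for Bub3 (36.4 CPM, others 40.1 to 40.8). C185G replicate 4, the least deeply sequenced library, was the highest for Cdca8 (9.92 CPM, others 5.23 to 5.67), Tpx2 (15.3 CPM, others 10.2 to 11.1) and Smc4 (59.4 CPM, others 53.0 to 53.3). C185G replicate 3 was the lowest for Kif23 (10.4 CPM, others 14.8 to 14.9) and Top2a (25.1 CPM, others 34.0 to 35.7). Of these genes, Kif23 in C185G replicate 3 overlapped WT, and for the other C185G values every library stayed above the controls.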

How the results depend on the processing

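No member called in a C185G contrast changed sign under any alternative run. With a minimum mean of 5 CPM only 21 of the 40 members could be tested, and 20 were called with 17 higher (C185G against WT) and 20 with 18 higher (C185G against C185Gneo). Leaving out 1 library at a time gave 38 to 40 calls against WT, 37 to 39 against C185Gneo and 0 to 0 for C185Gneo against WT. Nusap1 against WT passed with library totals as the scaling (0.59, adjusted p 0.0331) and without WT replicate 1 (0.69, adjusted p 0.0141). The cause of these shifts was not tested. With log2(CPM + 1) some fold changes, taken as ratios, were smaller by over 1.5 times, and all stayed called. On the log2 scale those against WT became 1.79 for Ccnb1, 0.88 for Cdc25c, 1.496 for Aurkb, 1.67 for Cdca8, 1.05 for Ndc80, 1.22 for Nuf2, 1.96 for Kif4, 1.33 for Kif2c and 1.53 for Hmmr. Those against C185Gneo became 0.89 for Cdc25c, 1.19 for Aurkb, 1.07 for Ndc80 and 1.08 for Nuf2.

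With the replicate number as a replicate block, 40 members were called against WT (37 higher, Nusap1 added at adjusted p 0.0346), 39 against C185Gneo and 0 for C185Gneo against WT. Correlations of same-numbered libraries after removal of group means ran from -0.126 to 0.182 and not every library correlated best with its own number, so the numbers were not taken as pairs. Low counts per WT library limit Cdc25c (2 to 8), Nuf2 (8 to 14), Aurkb (9 to 15), Ndc80 (9 to 19) and Kif4 (7 to 23).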
